A study of Mus musculus with 12 samples.

Results

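Nuclear genes for the subunits of the mitochondrial respiratory chain were followed in bulk RNA sequencing of mouse ear skin. They are 81 of the 24532 genes in the table. They were chosen by symbol alone, as the Nduf genes of complex I (36), Sdha to Sdhd of complex II (4), the Uqcr genes of complex III (8), the Cox4 to Cox8 genes of complex IV (16) and the Atp5 genes of complex V (17). The muscle isoforms Cox6a2 and Cox7a1 and symbols of pseudogenes were left out. The symbols also take in Atp5s, Atp5sl and Cox7a2l, which encode factors of regulation or assembly, and isoforms made mainly in other tissues. Of the 81 genes, 79 had enough counts to be tested, and Cox8c and Cox7b2 did not.

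The 12 libraries fall into 4 groups of 3, given by housing and treatment. Mice were specific-pathogen free (called SPF here) or germ-free (GF), and the skin received ethanol, the control, or MC903, which is calcipotriol, a vitamin D analogue used to inflame mouse skin. C57BL/6 is the strain named for 9 libraries. In the labels of GF MC903 4, GF ethanol 5 and GF MC903 5 the last digit is instead 7, 8 and 9. The labels give 5 treatments, in wording that does not settle whether these were spread over days. No allele or transgene is named, and neither age nor sex is given. The labels do not say that replicates came from separate mice, so a p-value here measures the spread between libraries, which may be technical.

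Library totals lay between 36358294 and 48225425 estimated counts. Levels are in CPM, counts set to a common library size after TMM scaling, a method that brings libraries to 1 level across most genes. Keratinocyte markers, 6 genes, were abundant, summing to between 20690 and 23680 CPM in SPF ethanol, 44900 and 54720 in SPF MC903, 24240 and 27680 in GF ethanol, and 55340 and 56230 in GF MC903. The skin also held skeletal muscle RNA, with 14 markers summing to between 1305 and 3433 CPM. The whole tissue was sequenced, so fewer cells of a type and less RNA per cell cannot be told apart in any result below.

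The respiratory chain sits in the inner mitochondrial membrane. Complexes I and II pass electrons from NADH and succinate to ubiquinone, complex III passes them on to cytochrome c, and complex IV hands them to oxygen, while I, III and IV pump protons. Complex V, the ATP synthase, lets the protons back through its rotor and makes ATP. Most subunits are encoded in the nucleus and imported, and a core of catalytic subunits of I, III, IV and V comes from the mitochondrial genome, whose genes were not analysed here.

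Promoters of these genes are known for sites of the factors NRF1, GABP (an ETS protein), YY1, SP1 and the oestrogen-related receptors (ERR). RefSeq windows of GRCm38.p6, from 250 bases before an annotated start of the gene to 50 after it, were found for 68 of the 81 genes, in 74 windows. Windows of 4 genes are printed up to 30 bases past that start, 5′ to 3′ on the gene's strand, and for Atp5g1 the start used lies inside the gene's span rather than at its end. On TMM-scaled counts Ndufa4 and Atp5g1 had the largest rise of complexes I and V in SPF skin and Atp5k the largest of all in GF skin, and Sdha rose in neither. Some of these ranks changed in other settings, as given below. Capitals mark matches to the 5 motifs searched on both strands: NRF1 (GCGCA and GCGC with any base between), ETS CCGGAAG, YY1 AAGATGGC, ERR AAGGTCA and SP1 GGGCGG.
Ndufa4, chr6:11907421-11907700, minus strand: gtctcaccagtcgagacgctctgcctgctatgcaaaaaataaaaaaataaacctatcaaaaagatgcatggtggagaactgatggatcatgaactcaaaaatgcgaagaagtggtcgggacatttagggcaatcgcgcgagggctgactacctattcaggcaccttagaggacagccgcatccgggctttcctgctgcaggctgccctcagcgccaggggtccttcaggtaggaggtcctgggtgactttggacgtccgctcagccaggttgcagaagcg
Atp5k, chr5:108434370-108434649, minus strand: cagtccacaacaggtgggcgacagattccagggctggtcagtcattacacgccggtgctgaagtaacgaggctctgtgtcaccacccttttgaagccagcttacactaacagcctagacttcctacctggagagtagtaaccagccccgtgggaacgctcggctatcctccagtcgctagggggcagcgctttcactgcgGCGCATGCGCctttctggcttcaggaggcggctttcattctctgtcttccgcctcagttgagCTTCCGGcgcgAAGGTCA
Atp5g1, chr11:96075602-96075881, minus strand: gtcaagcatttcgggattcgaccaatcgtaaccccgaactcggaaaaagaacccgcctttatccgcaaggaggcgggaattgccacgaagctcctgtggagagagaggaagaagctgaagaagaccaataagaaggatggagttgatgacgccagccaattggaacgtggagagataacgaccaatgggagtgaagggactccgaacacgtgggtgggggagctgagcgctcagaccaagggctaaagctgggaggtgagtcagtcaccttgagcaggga
Sdha, chr13:74350211-74350490, minus strand: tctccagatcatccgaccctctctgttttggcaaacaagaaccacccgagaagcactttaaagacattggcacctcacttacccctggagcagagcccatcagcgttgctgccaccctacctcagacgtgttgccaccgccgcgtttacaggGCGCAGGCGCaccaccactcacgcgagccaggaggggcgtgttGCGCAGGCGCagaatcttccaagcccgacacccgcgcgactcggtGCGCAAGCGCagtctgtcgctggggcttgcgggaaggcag

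The Sdha window holds 3 NRF1 matches, with first bases at -98, -55 and -10 from the gene's first base. The Atp5k window holds 1 NRF1 match at -50, read on both strands, an ETS match at 12 on the opposite strand and an ERR match at 23. The Ndufa4 and Atp5g1 stretches hold none of the 5. A match is a description of letters, not a site in use, and a stretch without a match says nothing about the factor. Over the whole windows, NRF1 letters stood in 24.3% of the genes' 74 windows, in 8.22% of windows of genes tested and in 4.6% of all windows. For YY1 the shares were 16.2%, 3.69% and 2.75%, for ETS 21.6%, 14.8% and 8.86%, for ERR 10.8%, 3.41% and 4.72%, and for SP1 39.2%, 57.3% and 35.7%. Of the tested genes with a window, 17 had an NRF1 match, and 50 had none. Their median log2 changes were 1.11 with a match and 0.93 without in the SPF response, 1.25 and 1.08 in the GF response, 0.40 and 0.34 between housings with ethanol, 0.508 and 0.514 between housings with MC903, and 0.11 and 0.18 for the difference of responses.

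On TMM-scaled counts, MC903 went with higher RNA of nearly the whole chain in both housings. In SPF skin 71 of 79 genes rose and 1, Atp5sl, fell, while 35.0% of all 16466 genes tested rose and 38.8% fell (edgeR's quasi-likelihood test, Benjamini-Hochberg adjusted p under 0.05, as for every call here). Their median log2 change was 0.93, a fold of 1.90, against -0.10 over all genes tested. In GF skin 72 rose and 0 fell, with 33.4% of all genes rising and 35.1% falling, and the median was 1.07, a fold of 2.1, against -0.07. In both responses 70 genes rose. The 0 genes called lower in GF skin by edgeR compare with 0 by DESeq2, 0 by limma-voom and 1 by edgeR at an unadjusted p under 0.05. The most negative was Atp5s, with a log2 change of -0.23 ± 0.11 (SE) and an adjusted p of 0.0684.
The counts depend on the scaling. On plain library totals, where the median of all genes moves by -0.58 in SPF and -0.51 in GF skin, 49 genes rose and 10 fell in SPF skin and 57 rose and 6 fell in GF skin. Of all genes 19.0% rose and 61.4% fell in SPF skin, and 17.0% and 58.9% in GF skin. With the trend of transcript length removed from every library, 55 of 79 genes rose and 7 fell in SPF skin, and 56 rose and 5 fell in GF skin, with medians of 0.29 and 0.40. Of all genes, 37.2% rose and 34.6% fell in SPF skin, and 33.8% and 31.1% in GF skin. Under all 3 scalings 44 of the 71 genes rose in SPF skin and 52 of the 72 in GF skin. The shares of all genes tested that rose under all 3 are not given here.

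Markers of other cells also moved with MC903. The keratinocyte sum was higher, and by gene 3 of 6 markers rose and 2 fell in SPF skin and 4 rose in GF skin. Fibroblast markers, 4 genes, all fell in both housings, with sums of 7183 to 8370 CPM in SPF ethanol, 3665 to 4670 in SPF MC903, 6076 to 7261 in GF ethanol and 3640 to 4776 in GF MC903. Of 4 neutrophil markers 3 rose in SPF and 4 in GF skin, with sums of 5.34 to 7.37 CPM in SPF ethanol, 63 to 66.3 in SPF MC903, 4.31 to 9.28 in GF ethanol and 77 to 137 in GF MC903. Their part in the rise of the chain was not tested.

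The 3 MC903 libraries all lay above the 3 ethanol libraries for 72 of 79 genes in SPF skin and 73 in GF skin, where this held for 35.8% and 35.6% of all genes. The summed level of the 81 genes was 6193, 6500 and 6229 CPM in SPF ethanol, 11940, 12870 and 11040 in SPF MC903, 7438, 8413 and 7769 in GF ethanol, and 15380, 15790 and 15030 in GF MC903. These 4 groups did not overlap. As a share of all counts, with no scaling, the sum was between 0.769% and 0.784% in SPF ethanol, 0.923% and 1.04% in SPF MC903, 0.899% and 0.972% in GF ethanol, and 1.26% and 1.31% in GF MC903. On this share too GF MC903 stood highest and SPF ethanol lowest, while SPF MC903 and GF ethanol overlapped.

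**Figure D1:**
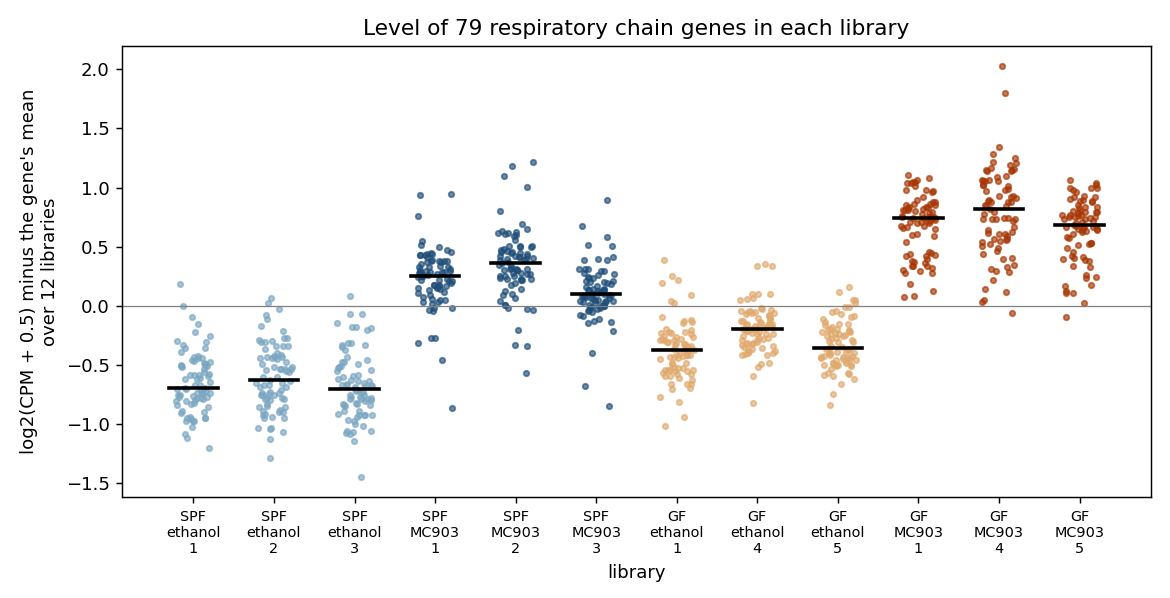
Each point is 1 of 79 respiratory chain genes in 1 library, as log2(CPM + 0.5) minus that gene's mean over the 12 libraries, and black bars are medians. The medians lie between -0.70 and -0.62 in SPF ethanol, -0.37 and -0.20 in GF ethanol, 0.10 and 0.36 in SPF MC903, and 0.68 and 0.82 in GF MC903.

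On TMM-scaled counts, more of this RNA was found in GF than in SPF skin under either treatment. With ethanol 57 of 79 genes were higher in GF skin and 0 lower, with a median log2 difference of 0.35, against 0.00 over all genes tested. Of all genes, 11.6% were higher and 10.3% lower. With MC903 61 genes were higher and 0 lower, with a median of 0.51 against 0.02, where 20.8% of all genes were higher and 20.9% lower. With the length trend removed the counts were 9 higher and 0 lower with ethanol, near the background of 7.14% higher and 5.7% lower of all genes, and 26 higher and 6 lower with MC903, against 16.5% and 22.9%, with medians of 0.13 and 0.11. On library totals 48 were higher with ethanol, against 8.62% higher and 13.5% lower of all genes, and 65 with MC903, against 21.8% and 20.1%. Higher under all 3 scalings were 7 and 26 genes, and the shares of all genes tested that meet all 3 are not given here. Of 14 skeletal muscle markers 13 were also higher in GF skin under each treatment, and their part in these differences was not tested. The GF libraries all lay above the SPF libraries for 71 genes with ethanol and 66 with MC903, against 21.8% and 25.4% of all genes.

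The ethanol count rested on few libraries. It was 22 without GF ethanol 4, 35 without SPF ethanol 3 and 37 without SPF ethanol 1, and the median stayed between 0.29 and 0.40 when each library was left out in turn. The MC903 count lay between 58 and 64. Genes lower in GF skin numbered 0 under either treatment by edgeR, DESeq2 and limma-voom, and 0 by edgeR at an unadjusted p under 0.05, all on scaled counts with no length correction, as 79 of 79 had a positive difference with ethanol and 75 of 79 with MC903. In mean TMM-scaled CPM 67 genes followed 1 order, SPF ethanol, GF ethanol, SPF MC903, GF MC903, from low to high. GF MC903 had the highest mean for 73 genes and SPF ethanol the lowest for 74. The shares of all genes tested with such orders are not given here. In the summed share of all counts, with no scaling, SPF MC903 and GF ethanol overlapped. Within GF MC903, library 4 was the highest of all 12 libraries for 42 of 79 genes.

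Complex I, the NADH dehydrogenase, is the largest complex, with 7 core subunits among the genes that carry the flavin and iron-sulphur clusters and 29 accessory ones. In SPF skin 35 of 36 genes rose, with a median log2 change of 0.92, and in GF skin 35, with a median of 1.07. The accessory genes had medians of 1.0 and 1.14, and the core genes of 0.65 and 0.82. On library totals 23 genes rose and 2 fell in SPF skin and 29 rose and 1 fell in GF skin, and with the length trend removed 27 rose and 1 fell in each. On TMM-scaled counts housing differed for 28 genes with ethanol and 30 with MC903, all higher in GF skin, with medians of 0.34 and 0.52. With the length trend removed only Ndufa9, Ndufa11 and Ndufs1 stayed higher with ethanol. With MC903 Ndufa3, Ndufa5, Ndufa9, Ndufa11, Ndufa13, Ndufb3, Ndufb5, Ndufb7, Ndufb11, Ndufs7, Ndufv2 and Ndufv3 then stayed higher, and Ndufa4 and Ndufa6 were lower.

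Ndufa4 (chr6:11900372-11907450, GRCm38.p6 as for every position here) had the highest mean FPKM of all 81 genes, 503 over the 12 libraries, where FPKM is the authors' value per length of transcript. It was first described in complex I and is now placed with complex IV. Its level was 112, 111 and 107 CPM in SPF ethanol, 434, 485 and 423 in SPF MC903, 118, 128 and 126 in GF ethanol, and 409.6, 475 and 421 in GF MC903. The MC903 libraries lay far above the ethanol libraries in either housing, and the MC903 groups overlapped each other. Its log2 change was 2.03 ± 0.07 (SE, n = 3 against 3, adjusted p = 3.21e-10 in edgeR's test) in SPF and 1.81 ± 0.07 (adjusted p = 2.34e-09) in GF skin.

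Ndufa3, a small accessory subunit of the membrane arm, had the largest GF change of complex I on TMM-scaled counts. It stood at 13.6, 12.9 and 12.7 CPM in SPF ethanol, 35.7, 38.8 and 28.1 in SPF MC903, 17.02, 20.8 and 17.8 in GF ethanol, and 53.6, 95.9 and 54.7 in GF MC903. The 4 groups did not overlap, and GF MC903 4 was far above the other libraries of its group. The log2 changes were 1.39 ± 0.20 in SPF and 1.88 ± 0.20 in GF skin (edgeR adjusted p = 4.26e-05 and 4.36e-06). The GF change became 1.55 without GF MC903 4, where Ndufa4 had 1.74, and 0.79 with the length trend removed, where the SPF change became 0.50.

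Ndufv3, an accessory subunit of the NADH-binding module, and Ndufs1, the largest iron-sulphur core subunit, behaved unlike most. Ndufv3 was at 46.7, 48.9 and 46.97 CPM in SPF ethanol, 48.9, 58.1 and 44.7 in SPF MC903, 53.8, 63.4 and 57.1 in GF ethanol, and 80.96, 102 and 81.1 in GF MC903. The SPF groups overlapped, and GF MC903 lay above every other library. Its log2 change was 0.09 ± 0.11 in SPF skin, which did not pass (adjusted p = 0.484, edgeR), and 0.6 ± 0.11 in GF skin, which did (0.000404), but became -0.12 with the trend of transcript length removed.
Ndufs1 was at 66.1, 70.6 and 71.96 CPM in SPF ethanol, 94.6, 81.9 and 93.05 in SPF MC903, 84.2, 85.7 and 81.4 in GF ethanol, and 88.99, 78.5 and 88.2 in GF MC903. SPF ethanol was the low group, and the other groups overlapped. Its log2 change was 0.37 ± 0.07 in SPF skin (adjusted p = 0.000491 in edgeR's test) and 0.03 ± 0.07 in GF skin (0.765), and on plain library totals it became -0.20 and -0.49.

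**Figure D2:**
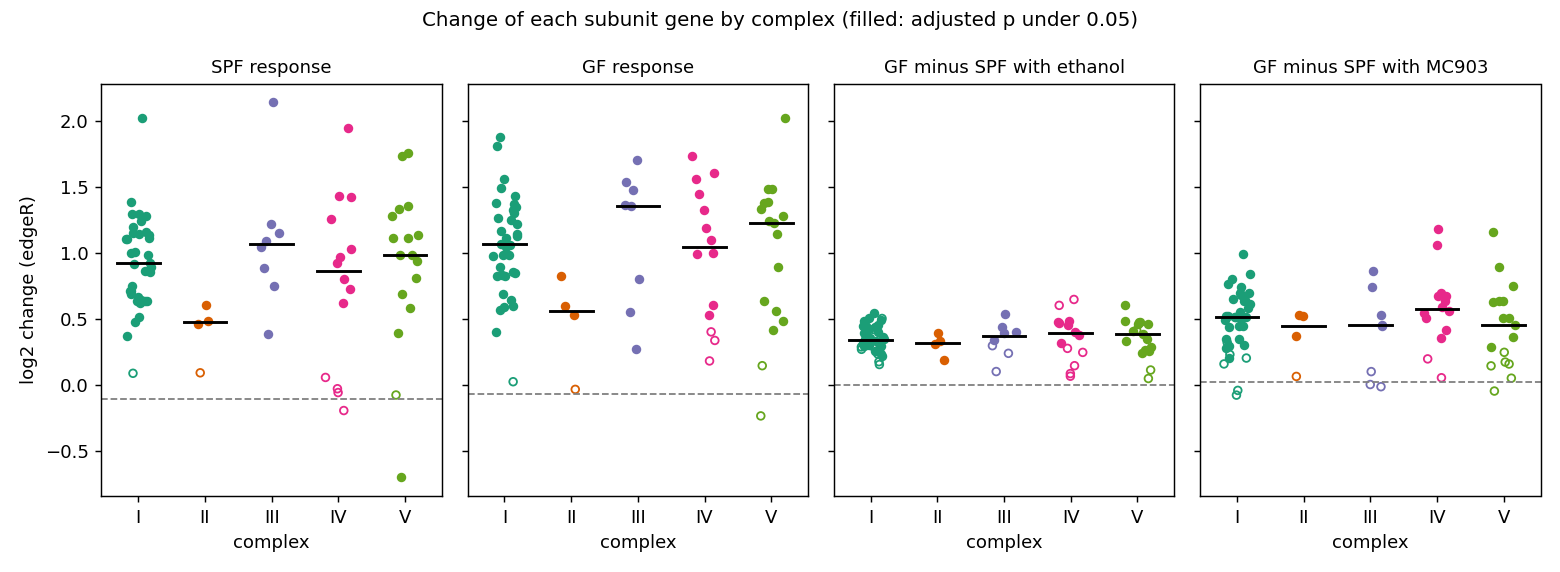
Each point is 1 tested gene, placed by complex, with its log2 change in edgeR's fit on the vertical axis, filled where the adjusted p was under 0.05; bars are medians of a complex and the dashed line is the median of all genes tested. Complex II has the lowest median in the 2 responses, 0.48 and 0.56, and every point for housing with ethanol lies above 0.

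Complex II, succinate dehydrogenase, is also an enzyme of the citrate cycle and is encoded by 4 nuclear genes alone. On TMM-scaled counts Sdhb, Sdhc and Sdhd rose in both housings, with medians over the complex of 0.48 and 0.56, and Sdha did not. With the length trend removed the contrast changed. Sdha and Sdhd then rose in SPF skin and Sdhb and Sdhc passed in neither direction, while in GF skin Sdhc and Sdhd rose and Sdha and Sdhb did not pass. On plain library totals the SPF median of the complex turned to -0.10, and Sdhc then changed by -0.11 in SPF skin. With ethanol all 4 were higher in GF skin, and with MC903 3. With the length trend removed Sdha and Sdhc stayed higher with ethanol, and Sdhc and Sdhd with MC903.
Sdha (chr13:74322255-74350240), the flavoprotein that oxidises succinate, stood at 167, 171 and 177 CPM in SPF ethanol, 187, 181 and 181 in SPF MC903, 198, 198 and 192 in GF ethanol, and 197, 189.9 and 189 in GF MC903. The SPF MC903 libraries lay just above SPF ethanol, and the GF groups overlapped. Its log2 change was 0.09 ± 0.05 in SPF and -0.03 ± 0.05 in GF skin, and neither passed (edgeR adjusted p = 0.0933 and 0.557). It was higher in GF skin with ethanol by 0.19 ± 0.05 (adjusted p = 0.0147), a call lost without GF ethanol 4 (0.0656) or SPF ethanol 1 (0.0508).
Sdhc and Sdhd encode the membrane anchor, and Sdhc had the highest FPKM of the complex. Sdhc was at 80.1, 82.5 and 79.95 CPM in SPF ethanol, 109.9, 117 and 108 in SPF MC903, 100.4, 115 and 103 in GF ethanol, and 169, 151 and 161 in GF MC903. GF MC903 was highest and SPF ethanol lowest, while SPF MC903 and GF ethanol overlapped. Sdhd was at 62.7, 63.4 and 61.9 CPM in SPF ethanol, 101, 95.8 and 89.5 in SPF MC903, 76.7, 80.3 and 75.96 in GF ethanol, and 150, 129 and 134 in GF MC903. Its 4 groups did not overlap. Log2 changes were 0.46 ± 0.07 and 0.6 ± 0.06 for Sdhc and 0.61 ± 0.07 and 0.83 ± 0.07 for Sdhd in SPF and GF skin, and all passed, with edgeR adjusted p between 4.07e-07 and 3.18e-05. The calls of Sdhc were lost on library totals in both housings (-0.11 and 0.09) and with the length trend removed in SPF skin (0.08), and that of Sdhd on library totals in SPF skin (0.03).

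Complex III, the cytochrome bc1 complex, rose as a whole, with 8 of 8 genes higher in both housings and medians of 1.07 and 1.36. On library totals 6 rose and 1 fell in each, and with the length trend removed 8 rose in SPF and 6 in GF skin. Between housings 5 of 8 were higher in GF skin with ethanol and 5 with MC903. With the length trend removed only Uqcrc1 stayed higher with ethanol. With MC903 Uqcr11, Uqcrc1 and Uqcrh then stayed higher, and Uqcrfs1 was lower.
Uqcrc1 and Uqcrc2 are the large matrix-facing core proteins, and Uqcrc1 had the highest FPKM of the complex. Uqcrc1 was at 232, 243 and 235 CPM in SPF ethanol, 429.9, 408 and 359 in SPF MC903, 287, 345 and 306 in GF ethanol, and 577, 499.8 and 562 in GF MC903. The 4 groups did not overlap. Its log2 changes were 0.75 ± 0.09 in SPF and 0.81 ± 0.09 in GF skin (edgeR adjusted p = 4.89e-06 and 3.85e-06). On library totals the SPF change became 0.18 and did not pass (0.0509).
Uqcrc2 had the smallest rise, at 96.03, 105 and 104 CPM in SPF ethanol, 133, 129.9 and 135 in SPF MC903, 110.3, 106 and 110.2 in GF ethanol, and 134, 128 and 132 in GF MC903. MC903 libraries lay above ethanol libraries, and the MC903 groups overlapped. Its log2 changes were 0.39 ± 0.05 and 0.27 ± 0.05 (edgeR adjusted p = 2.18e-05 and 0.000511), and turned to -0.19 and -0.24 on plain library totals. The GF call was lost with the length trend removed (0.11, adjusted p = 0.0912 in edgeR's test).
Uqcrq (chr11:53427922-53430831), a small subunit beside the ubiquinone-binding part, had the largest SPF change of all 79 genes. It was at 69.7, 54.8 and 49.1 CPM in SPF ethanol, 259, 305 and 201 in SPF MC903, 66.2, 95.8 and 90.4 in GF ethanol, and 289.8, 299 and 233 in GF MC903. MC903 lay above ethanol in every library, and the housings overlapped under both treatments. The log2 changes were 2.14 ± 0.19 and 1.7 ± 0.18 (edgeR adjusted p = 4.12e-07 and 4.17e-06), and its span overlaps that of Gdf9, whose reads may not be separable.
Uqcr11, the smallest subunit, was at 40.3, 41.4 and 37.2 CPM in SPF ethanol, 86.6, 95.6 and 71.1 in SPF MC903, 43.5, 52.05 and 50.6 in GF ethanol, and 127, 169 and 128 in GF MC903. The groups did not overlap, and GF MC903 4 was the highest library. The log2 changes were 1.09 ± 0.13 and 1.54 ± 0.13 (edgeR adjusted p = 6.67e-06 and 5.35e-07).

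Complex IV, cytochrome c oxidase, includes several tissue isoforms among its genes. Of 14 tested genes 10 rose in SPF skin and 11 in GF skin, with medians of 0.87 and 1.05, and 7 and 12 were higher in GF skin with ethanol and with MC903. On library totals 8 rose and 3 fell in SPF skin and 9 rose and 1 fell in GF skin, and with the length trend removed 7 rose and 4 fell, and 8 rose and 2 fell. Between housings no gene of the complex stayed higher with ethanol once the length trend was removed. With MC903 Cox5b, Cox6b1, Cox6c and Cox7c then stayed higher, and Cox5a was lower.
Cox5a (chr9:57517328-57532427), a subunit on the matrix side, changed most. It stood at 72.7, 70.5 and 69.9 CPM in SPF ethanol, 262, 311 and 248 in SPF MC903, 87.7, 102 and 92.1 in GF ethanol, and 318, 315 and 309 in GF MC903. All MC903 libraries lay above all ethanol libraries, and the MC903 groups overlapped at their edge. Its log2 changes were 1.95 ± 0.08 in SPF and 1.74 ± 0.08 in GF skin (edgeR adjusted p = 1.18e-09 and 7.91e-09).

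Where complex IV has a general and a tissue isoform, the general isoform rose on TMM-scaled counts, though for 3 of the 5 not under every scaling. Cox4i1, which had the highest FPKM of the complex, was at 248, 274 and 231 CPM in SPF ethanol, 391, 490.2 and 368 in SPF MC903, 278, 332 and 304 in GF ethanol, and 612, 619.8 and 593 in GF MC903. Its groups did not overlap, and its log2 changes were 0.73 ± 0.10 and 1.0 ± 0.10 in SPF and GF skin (edgeR adjusted p = 3.74e-05 and 3.42e-06). The SPF call was lost on library totals (0.15) and with the length trend removed (0.08).
Cox4i2, the isoform of lung and of low oxygen, was at 7.58, 7.403 and 5.02 CPM in SPF ethanol, 6.19, 7.48 and 7.14 in SPF MC903, 6.56, 6.97 and 7.71 in GF ethanol, and 10.3, 11.8 and 8.62 in GF MC903. GF MC903 lay above all other libraries, and the other groups overlapped. The log2 change was 0.06 ± 0.17 in SPF skin (edgeR adjusted p = 0.763) and 0.53 ± 0.16 in GF skin (0.0118), and the GF call was lost without GF MC903 4 (0.0544) and turned to -0.25 with the length trend removed. Its span overlaps Bcl2l1.

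Cox6b1 was at 66.7, 68.4 and 64.9 CPM in SPF ethanol, 178, 207 and 151 in SPF MC903, 81.1, 101 and 92.6 in GF ethanol, and 272, 305 and 257 in GF MC903. These groups did not overlap, and the log2 changes of 1.43 ± 0.11 and 1.6 ± 0.11 passed (edgeR adjusted p = 1.70e-07 and 1.23e-07). Cox6b2, its counterpart of testis, had between 11 and 76 counts in a library, or 0.798, 0.784 and 0.867 CPM in SPF ethanol, 1.02, 0.72 and 0.362 in SPF MC903, 1.52, 1.48 and 0.8398 in GF ethanol, and 1.45, 1.695 and 1.72 in GF MC903. GF MC903 was above both SPF groups. It changed by -0.19 ± 0.34 and 0.34 ± 0.32 with MC903, which did not pass (edgeR adjusted p = 0.623 and 0.356), and was higher in GF than in SPF skin under MC903 by 1.18 ± 0.34 (0.0138). That call was lost with the length trend removed (0.74, adjusted p = 0.0906 in edgeR's test).

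Cox7a2 was at 48.3, 54.6 and 50.8 CPM in SPF ethanol, 99.6, 106 and 86.9 in SPF MC903, 59.03, 65.5 and 57.9 in GF ethanol, and 121, 146 and 123 in GF MC903. No groups overlapped, and its log2 changes were 0.93 ± 0.09 and 1.1 ± 0.09 (edgeR adjusted p = 1.76e-06 and 6.20e-07). Cox7a2l, a factor that joins complexes III and IV in supercomplexes, was at 168, 199 and 178 CPM in SPF ethanol, 158, 197 and 179 in SPF MC903, 199, 210 and 194 in GF ethanol, and 238, 216 and 231 in GF MC903. The SPF groups overlapped fully, and GF MC903 was highest. Its log2 changes of -0.03 ± 0.09 and 0.18 ± 0.09 did not pass (edgeR adjusted p = 0.781 and 0.0738).

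Cox7b was at 65.7, 66.4 and 67.5 CPM in SPF ethanol, 109.5, 98.8 and 98.9 in SPF MC903, 68.9, 69.7 and 70.6 in GF ethanol, and 103, 125 and 90.8 in GF MC903. It rose by 0.62 ± 0.09 and 0.61 ± 0.09 on the log2 scale (edgeR adjusted p = 6.37e-05 and 9.34e-05), and the housings overlapped with MC903. Neither call held on library totals (0.05 and 0.10) or with the length trend removed (0.15 and 0.04). Cox7b2, an isoform of testis, had 2 counts in GF ethanol 5, 2 in GF MC903 5 and 0 in the other libraries. That is at or under the 3 counts a library would need to stand clear of 0.

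Cox8a was at 111, 121 and 109 CPM in SPF ethanol, 206, 214 and 174 in SPF MC903, 136, 154 and 134 in GF ethanol, and 283, 289 and 276 in GF MC903. Its groups did not overlap, and it rose by 0.81 ± 0.08 and 1.0 ± 0.08 (edgeR adjusted p = 1.78e-06 and 4.44e-07). Neither call held with the length trend removed (0.04 and 0.08). Cox8b, the isoform of heart and skeletal muscle, was at 2.56, 2.701 and 3.098 CPM in SPF ethanol, 1.77, 2.78 and 3.55 in SPF MC903, 4.23, 4.71 and 3.78 in GF ethanol, and 4.599, 6.92 and 5.3 in GF MC903. SPF groups overlapped, and every GF library lay above every SPF library. Its log2 changes of -0.06 ± 0.23 and 0.40 ± 0.22 with MC903 did not pass (edgeR adjusted p = 0.834 and 0.123), while with MC903 it was higher in GF skin by 1.06 ± 0.23 (0.00284). That last call was lost with the length trend removed (0.56, adjusted p = 0.0812 in edgeR's test). Cox8c, known from testis, had 0 counts in all 12 libraries, which allows up to 3 counts, or between 0.0553 and 0.0987 CPM, per library (counting error only).

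Beside these isoforms stand markers of the same tissues. Of 14 skeletal muscle markers, 13 were higher in GF skin with ethanol and 13 with MC903, with medians of 0.70 and 0.82. Their sum was 2236 to 2584 CPM in SPF ethanol, 1305 to 1395 in SPF MC903, 3138 to 3433 in GF ethanol and 2044 to 2079 in GF MC903. With MC903 10 of the 14 fell in SPF skin and 9 in GF skin, while Cox8b passed in neither housing. Of the 4 germ cell markers 2 were at 0 in every library, and the sum stayed at or under 0.132 CPM. It was 0 in every GF MC903 library. Such sums are near the floor of 3 counts, between 0.0553 and 0.0987 CPM per library, and any link with Cox6b2 was not tested.

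Complex V, the ATP synthase, has a catalytic F1 head, a rotor ring of c subunits and a membrane part with its stalk. Of 17 genes 15 rose and 1 fell in SPF skin, and 15 rose in GF skin, with medians of 0.99 and 1.23. On library totals 12 rose and 3 fell, and 12 rose and 2 fell, and with the length trend removed 11 rose and 2 fell, and 13 rose and 2 fell. With ethanol 13 were higher in GF skin and with MC903 11. With the length trend removed only Atp5a1, Atp5d and Atp5g2 stayed higher with ethanol. With MC903 Atp5h, Atp5j2, Atp5k, Atp5o and Atp5sl then stayed higher, and Atp5b and Atp5j were lower.
Atp5b (chr10:128083307-128090388), the catalytic beta subunit, had the highest FPKM of the complex. Its level was 641, 660.2 and 695 CPM in SPF ethanol, 1307, 1271 and 1247 in SPF MC903, 756, 834 and 794 in GF ethanol, and 1255, 1198 and 1255 in GF MC903. MC903 libraries lay above ethanol libraries, and the housings overlapped with MC903. Its log2 changes were 0.94 ± 0.06 in SPF and 0.64 ± 0.06 in GF skin (edgeR adjusted p = 3.35e-08 and 1.57e-06).

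Atp5g1, Atp5g2 and Atp5g3 encode the same mature c subunit behind different import signals. Atp5g1 was at 42.8, 40.5 and 41.4 CPM in SPF ethanol, 117, 193 and 111 in SPF MC903, 52.3, 62.1 and 58.7 in GF ethanol, and 146, 142 and 149 in GF MC903. SPF MC903 2 was far above the other libraries of its group. Without that library Atp5d, at 1.64, had the largest SPF change of complex V. It also had the largest with limma-voom (1.73) and with the length trend removed (1.21). Atp5g2 was at 94.95, 100.4 and 92.9 CPM in SPF ethanol, 235, 279 and 223 in SPF MC903, 127, 145 and 128 in GF ethanol, and 355, 334 and 359 in GF MC903. Atp5g3 was at 123, 128 and 125 CPM in SPF ethanol, 284, 291 and 253 in SPF MC903, 146, 176 and 157 in GF ethanol, and 371, 402 and 363 in GF MC903. All MC903 libraries lay above all ethanol libraries for all 3 genes.
The log2 changes in SPF and GF skin were 1.76 ± 0.17 and 1.33 ± 0.17 for Atp5g1, 1.35 ± 0.08 and 1.39 ± 0.08 for Atp5g2, and 1.14 ± 0.08 and 1.25 ± 0.08 for Atp5g3, and all passed edgeR's test with adjusted p of 1.40e-05 or less. On FPKM, per length, Atp5g3 gave 46.6% ± 0.485 (SD, n = 3), Atp5g2 39.6% ± 0.764 and Atp5g1 13.8% ± 0.626 of the sum of the 3 in SPF ethanol. In GF MC903 the shares were 42.3% ± 2.14, 43.2% ± 1.78 and 14.5% ± 0.371. Atp5g1 gave 16.1%, 22.3% and 16.5% in the SPF MC903 libraries.

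Atp5k (chr5:108433246-108434399), the small membrane subunit e, had the largest GF change of all 79 genes on TMM-scaled counts. It was at 12, 13.8 and 13.8 CPM in SPF ethanol, 33.8, 34.8 and 27.5 in SPF MC903, 15.4, 20.8 and 16.7 in GF ethanol, and 55.4, 109.6 and 49.7 in GF MC903. The groups did not overlap, and GF MC903 4 stood far above all other libraries. The log2 change was 1.28 ± 0.25 in SPF and 2.02 ± 0.25 in GF skin (edgeR adjusted p = 0.000478 and 1.45e-05). With MC903 it was higher in GF skin by 1.16 ± 0.24 (0.00241), which became 0.71 without GF MC903 4. Without that library its GF change became 1.58, under the 1.74 of Ndufa4. With the length trend removed the GF change became 0.89, under the 1.41 of Uqcrq, and the SPF call was lost (0.36, adjusted p = 0.121 in edgeR's test).
Atp5s, a coupling factor, was at 5.28, 5.34 and 5.37 CPM in SPF ethanol, 5.47, 4.86 and 4.84 in SPF MC903, 6.68, 7.27 and 6.19 in GF ethanol, and 5.99, 5.86 and 5.27 in GF MC903. GF ethanol was its highest group. Its log2 changes with MC903 were -0.08 and -0.23, and neither passed (edgeR adjusted p = 0.541 and 0.0684).

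The response itself differed between housings for few of these genes. The difference of responses, GF minus SPF, passed for 3 genes upward and 3 downward of 79, where 7.75% of all genes were higher and 9.26% lower. The median difference was 0.13 on the log2 scale, against 0.02 over all genes tested. With the length trend removed it passed for 3 upward and 6 downward, against 7.0% and 12% of all genes, and on library totals for 5 upward and 0 downward, against 10.1% and 6.99%. The count upward lay between 1 and 6, and downward between 0 and 2, when each library was left out in turn.
Over the 79 genes the 2 responses, which share no libraries, had a Pearson correlation of 0.874 and a Spearman correlation of 0.923, a description across genes that are not independent. The 2 housing differences, which also share none, had correlations of 0.465 and 0.493.

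Atp5sl (chr7:25619414-25625550) stood apart. Its product, also named Dmac2, is known as an assembly factor of the complex I membrane arm. It was at 17.6, 16.1 and 16.3 CPM in SPF ethanol, 11.1, 10.3 and 9.44 in SPF MC903, 18.5, 16.01 and 17.3 in GF ethanol, and 20.8, 19.8 and 16.8 in GF MC903. The SPF MC903 libraries were the lowest of all 12, and the other groups overlapped. The log2 change was -0.7 ± 0.10 in SPF skin (edgeR adjusted p = 3.30e-05) and 0.15 ± 0.10 in GF skin (0.195). On library totals the GF change turned to -0.37 and passed as a fall (adjusted p = 0.0061 in edgeR's test). The difference of responses was 0.85 ± 0.14 (0.00172), and it passed in 20 of 20 alternative settings, with adjusted p between 2.70e-06 and 0.00569.

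The other differences were smaller and close to the threshold. Atp5l, subunit g of the membrane part, was at 102, 95.2 and 85.2 CPM in SPF ethanol, 192, 204 and 163 in SPF MC903, 97.6, 103 and 105 in GF ethanol, and 263, 281 and 251 in GF MC903. Its ethanol groups overlapped and GF MC903 was highest, with a difference of responses of 0.39 ± 0.12 (edgeR adjusted p = 0.0481). Ndufv3 had a difference of 0.51 ± 0.16 (0.0439).
Uqcrfs1, the Rieske iron-sulphur protein of complex III, was at 75.6, 85.5 and 79.4 CPM in SPF ethanol, 142, 159 and 144 in SPF MC903, 97.9, 105 and 102 in GF ethanol, and 156, 135 and 156 in GF MC903. Here the MC903 groups overlapped and GF ethanol lay above SPF ethanol, with a difference of -0.34 ± 0.10 (edgeR adjusted p = 0.0446). Ndufs1 differed by -0.34 ± 0.10 (0.0366) and Atp5b by -0.30 ± 0.09 (0.0318). In the 20 alternative settings, Atp5b and Ndufv3 passed in 10, Ndufs1 in 9, Uqcrfs1 in 7 and Atp5l in 6, and each was lost without SPF ethanol 1, with adjusted p between 0.0701 and 0.109.

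**Figure D3:**
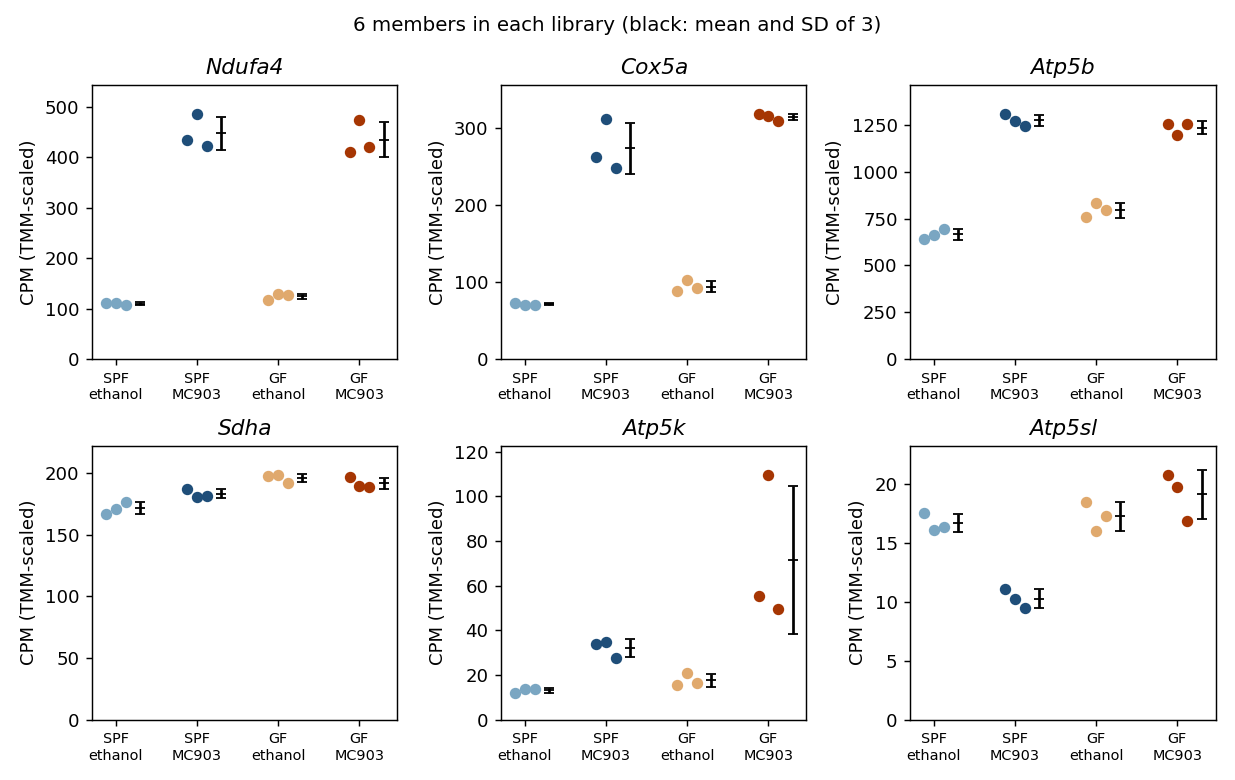
Points are CPM in each of the 12 libraries for 6 genes, with the mean and SD of 3 libraries in black, on linear axes from 0. Ndufa4 and Cox5a separate by treatment, Sdha stays between 167 and 199 CPM, GF MC903 4 reaches 109.6 CPM for Atp5k, and Atp5sl is lowest in SPF MC903.

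Most of these transcripts are short, and short transcripts as a class were higher with MC903 and in GF skin. The length implied by count and FPKM had a median of 745 bases for the 79 genes, from 299 for Atp5k to 2924 for Sdha, against 2805 over genes tested. The shortest decile of genes held 55 of the 79. In that decile 58.9% of all genes rose in SPF skin, 63.5% rose in GF skin, 27.1% were higher in GF skin with ethanol and 40.8% with MC903. In the longest decile the shares were 14.1%, 11.7%, 1.55% and 11.5%.

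Among genes under 1000 bases, 49 of 53 chain genes rose in SPF skin and 51 in GF skin, against 59.4% and 64.3% of all genes of that length. Among longer genes, 22 of 26 chain genes rose in SPF skin and 21 in GF skin, against 33.3% and 31.1%. For housing, 36 of 53 short chain genes were higher in GF skin with ethanol and 46 with MC903, against 27.2% and 41.3%. Of the 26 longer ones, 21 and 15 were higher, against 10.4% and 19.3%. Over the 79 genes, length and log2 change had Spearman correlations of -0.48 in SPF skin, -0.62 in GF skin, -0.36 for housing with ethanol and -0.53 with MC903, a description across genes of the same libraries.

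**Figure D4:**
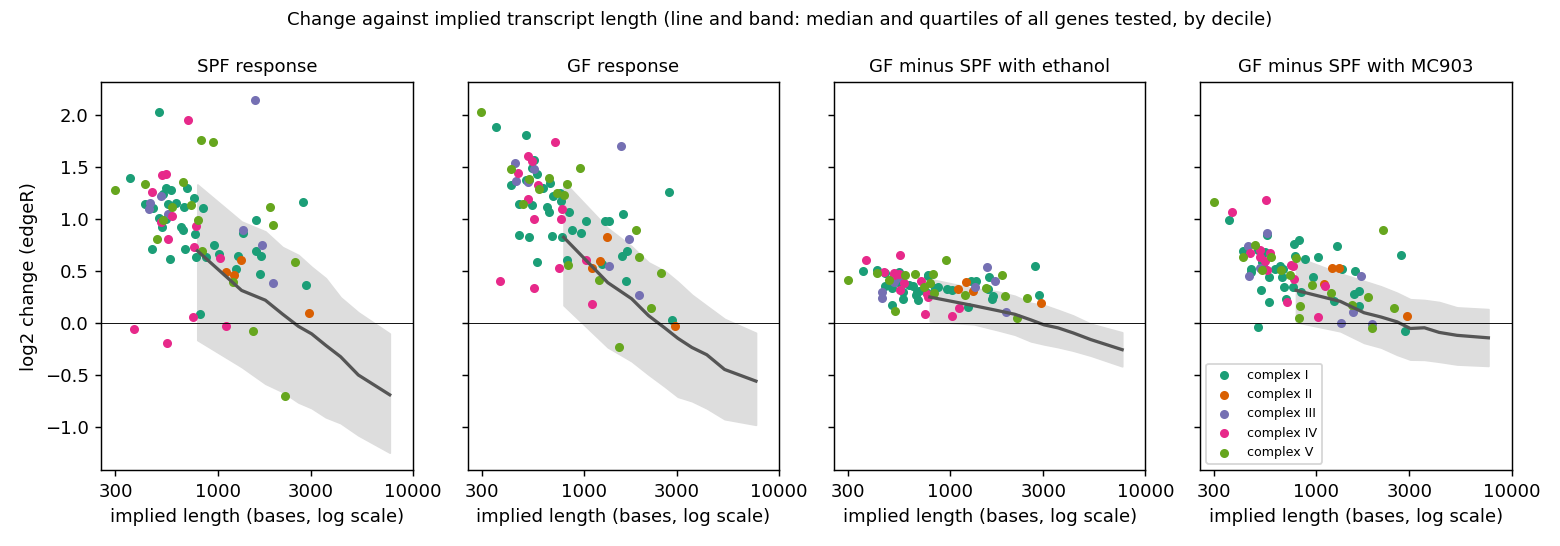
Each point is 1 tested gene, with implied transcript length in bases on a log axis and log2 change in edgeR's fit on the vertical axis, and the grey line and band are the median and quartiles of all genes tested in each decile of length, drawn from the first decile's median upward. The line and the points both go down with length in all 4 panels.

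The 7 genes higher in GF skin with ethanol under all 3 scalings were Atp5a1, Atp5d, Atp5g2, Ndufa11, Ndufa9, Sdhc and Uqcrc1. With the length trend removed the ethanol count was near the background, as given above. Atp5s, Atp5sl, Cox7a2l, Ndufs1, Sdha and Uqcrc2 fell in both housings on library totals.

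The authors' FPKM, which carry no TMM scaling, gave the same order only in part. The median over complex III was 96.9 ± 2.6 FPKM in SPF ethanol (SD of 3 libraries), 149 ± 18.1 in SPF MC903, 118 ± 8.49 in GF ethanol and 212 ± 20.3 in GF MC903. For complex II it was 71.3 ± 1.35 in SPF ethanol and 63.2 ± 1.55 in SPF MC903, a lower level with MC903, and 82.5 ± 0.687 and 86.5 ± 3.31 in GF skin. In complex IV GF ethanol (160 ± 9.25) lay above SPF MC903 (146 ± 8.95). The same held in complex V (179 ± 1.84 against 157 ± 29.1), where SPF ethanol was at 150 ± 3.82. Complex I kept the order, with GF ethanol at 75.25 ± 3.23 and SPF MC903 at 79.3 ± 6.0.

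Genes around the chain were read from lists. For comparison, 35.0% of all genes tested rose and 38.8% fell in SPF skin, and 33.4% and 35.1% in GF skin. Of 15 complex I assembly factors 9 rose in SPF skin and 10 in GF skin, with medians of 0.22 and 0.43. On library totals their medians turned to -0.36 and -0.08. Of 35 assembly factors of complexes II to V, 26 rose and 3 fell in SPF skin and 24 rose and 3 fell in GF skin, with medians of 0.60 and 0.57, and of 0.01 and 0.06 on library totals.
Of 18 regulators of mitochondrial biogenesis 7 rose and 5 fell in SPF skin, and 9 and 6 in GF skin, with medians of 0.02 and 0.22, or -0.55 and -0.29 on library totals. Those that rose in both housings were Nrf1 (0.60 and 0.35 in SPF and GF skin), Esrra (0.63 and 0.58), Gabpb1 (0.52 and 0.33), Ppard (1.76 and 1.03), Pprc1 (0.88 and 0.79), Myc (0.80 and 0.76) and Tfam (0.25 and 0.30). All values by gene are on TMM-scaled counts. On library totals the median of all genes tested moves by -0.58 in SPF and -0.51 in GF skin. That is more than the rises of Gabpb1 and Tfam in both housings and of Nrf1 in GF skin. The rises of Nrf1 in SPF skin and of Esrra in both housings are only slightly larger than this move. Gabpa (-0.39 and -0.65), Ppara (-3.03 and -1.61), Esrrg (-1.71 and -2.29) and Perm1 (-0.60 and -0.67) fell in both. Yy1 changed by 0.04 in SPF skin, which did not pass, and -0.33 in GF skin, which did. Among subunits outside the symbol rule, Ndufa4l2, a relative of Ndufa4 known from low oxygen, rose by 2.22 and 1.54, and Cyc1, the haem subunit of complex III, by 1.05 and 0.71. The excluded muscle isoforms Cox6a2 and Cox7a1 were higher in GF skin by 1.05 and 0.95 with ethanol and 0.94 and 0.95 with MC903.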

How the data were processed

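Per the labels' protocols, RNA was taken from ear skin with a fibrous tissue kit and sequenced on a HiSeq4000 after TruSeq library preparation. HISAT2 2.1.0, StringTie 1.3.4d, Trimmomatic, bcl2fastq 2.20.0 and the mm10 build are named in the submitters' processing notes. The settings, the annotation release, the use of strand and the treatment of reads shared with pseudogenes were not given in the sources used here. The spans of 25 of the 81 genes overlap another RefSeq gene, and of 13 a coding one, so their reads may not be separable. Per the file headers, the authors deposited for each gene and library an estimated count and an FPKM value. The estimated counts are whole numbers and were used as deposited for all tests, and the deposited FPKM only for levels between genes and for implied transcript lengths.

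One fit of all 12 libraries (edgeR 4.0.16, R 4.3.3) used a coefficient per group, TMM factors (0.807 to 1.25), the filterByExpr function (minimum count 10, minimum total 15) and the quasi-likelihood test, with Benjamini-Hochberg adjustment over 16466 genes at 0.05. It gave the MC903 response in each housing, their difference, and GF minus SPF with each treatment. CPM are counts over TMM-scaled totals. The fit was tested on simulated data. Genes given with values in every library were those with the highest FPKM and the extreme changes of each complex, isoform pairs, and genes whose responses differed. The genes, lists and this rule were chosen with earlier results of these data known. Alternatives were library totals, DESeq2 (1.42.0) size factors and test, limma-voom (limma 3.58.1), no filter, the length trend removed, the groups compared alone, isoforms left out, a replicate block, and each library left out.

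Replicate pairs all differed by more than sampling noise. Libraries with the same number did not deviate together, so numbers were not treated as pairs.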

Additional observations from a re-analysis of the deposited data

Results flagged for a closer look

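For 6 genes the response to MC903 differed between GF and SPF skin in the test of that difference. The log2 difference, GF minus SPF, was 0.85 for Atp5sl, 0.51 for Ndufv3, 0.39 for Atp5l, -0.34 for Ndufs1, -0.34 for Uqcrfs1 and -0.30 for Atp5b. Atp5sl passed in 20 of 20 alternative settings. The other 5 passed in between 6 and 10 of them.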

How the results depend on the processing

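On library totals 10 genes fell in SPF and 6 in GF skin, with medians of 0.35 and 0.56, and 5 differences of responses passed upward and 0 downward. Named genes then turned in SPF skin (Cox4i2 -0.52, Ndufs1 -0.20, Ndufv3 -0.49, Sdha -0.48, Sdhc -0.11, Uqcrc2 -0.19) and in GF skin (Atp5sl -0.37, Cox7a2l -0.33, Ndufs1 -0.49, Uqcrc2 -0.24). With the length trend removed 7 fell in SPF and 5 in GF skin, with medians of 0.29 and 0.40, and 6 differences of responses passed downward. With ethanol 9 genes were then higher in GF skin (median 0.13), and with MC903 26 higher and 6 lower (0.11). Turned values were -0.59 for Cox4i2 and -0.52 for Ndufv3 in SPF skin, -0.25 for Cox4i2, -0.33 for Cox7a2l, -0.66 for Cox8b and -0.12 for Ndufv3 in GF skin, and -0.20 for Cox5a and -0.23 for Uqcrfs1 between housings with MC903. The cause was not tested. A replicate block, on numbers that share no stated source, gave 71 genes higher and 1 lower in SPF skin and 5 upward and 0 downward differences of responses. Same-numbered libraries had correlations of deviations between -0.009 and 0.126, and not every library correlated best with its own number. The block with the length trend removed gave 7 and 4 lower genes, medians of 0.29 and 0.39, and -0.58 for Cox4i2 and -0.52 for Ndufv3 in SPF skin and -0.25 for Cox4i2, -0.33 for Cox7a2l, -0.67 for Cox8b and -0.13 for Ndufv3 in GF skin. DESeq2 size factors and no filter each left 1 upward difference of responses, and without the auxiliary isoforms 0 genes fell in SPF skin. With each library left out in turn, 71 genes rose in SPF skin (1 fell, median 0.86 to 1.04) and 71 to 73 in GF skin (0 to 1 fell, 1.02 to 1.16). The differences of responses ran from 1 to 6 upward and from 0 to 2 downward (0.07 to 0.22). Genes higher in GF skin ran from 22 to 61 with ethanol (0.29 to 0.40) and from 58 to 64 with MC903 (0.43 to 0.57). Apart from the scaling and length settings and the block, 2410 of 2520 values of named genes kept direction and call, and 0 turned. Depth limits Cox6b2, Cox7b2 and Cox8c.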

Other observations

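Genes of the machinery that brings these subunits into mitochondria also rose with MC903. Of 27 import and chaperone genes 27 rose in SPF skin and 26 in GF skin, with median log2 changes of 1.32 and 1.08, and of 0.93 and 0.74 with the length trend removed. They include Timm8a1, an import chaperone of the intermembrane space (2.43 and 1.78), the folding chaperones Hspd1 (1.73 and 1.34) and Hspe1 (1.94 and 1.78), and the protease Lonp1 (1.55 and 0.94). Between housings with MC903 their median was 0.00 on TMM-scaled counts, where the chain had 0.51. Single import genes passed in both directions, such as Tomm7 (0.69) and Lonp1 (-0.69). The chain's value was lower with the length trend removed, as given above, and that of the import genes is not given here. Of 78 mitochondrial ribosomal proteins 76 rose in each housing, with medians of 0.99 and 0.95, and of 80 cytosolic ribosomal proteins 78 and 77 rose, with medians of 1.14 and 1.14. These ribosomal values are on TMM-scaled counts alone. Markers of proliferating cells, 4 genes, summed to between 136 and 161 CPM in SPF ethanol and between 461 and 554 in SPF MC903, and their part in these changes was not tested.

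Genes of fatty acid oxidation did not share the rise of the chain. Of 17 genes 6 rose and 7 fell in SPF skin, with a median of -0.08, and 6 rose and 6 fell in GF skin, with a median of -0.04. These counts are near the shares of all genes tested. Of those, 35.0% rose and 38.8% fell in SPF skin, and 33.4% and 35.1% in GF skin. On library totals 15 and 14 fell, where 61.4% and 58.9% of all genes fell. With MC903 13 were higher in GF skin and 1 lower, with a median of 0.45, against 20.8% and 20.9% of all genes. Among the higher ones were Cpt1a, the entry enzyme for fatty acids (0.87), and Acadm, the medium-chain dehydrogenase (0.67). With the length trend removed 11 were higher, against 16.5% of all genes. Of 18 citrate cycle genes 13 rose in SPF and 11 in GF skin, with medians of 0.40 and 0.24, which turned to -0.17 and -0.28 on library totals. Suclg2, a subunit of succinyl-CoA ligase, changed by -0.15 in SPF skin and fell by 1.84 on the log2 scale in GF skin.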
